A study of Mus musculus with 58 samples.

Results

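The 9 genes Rpe65, Lrat, Rdh5, Rgr, Ttr, Best1, Tyr, Tyrp1 and Pmel are markers of the retinal pigment epithelium, and their rows were taken by symbol from the 52459 genes of the count table. The libraries were made from ribosomal RNA-depleted total RNA of single dissected retinas. The control group held 30 libraries of wild-type C57/BL/6 littermate males and the diabetic group held 28 libraries of heterozygous C57BL/6-Ins2Akita/J males, which carry a point mutation of the insulin 2 gene that causes insulin misfolding, beta cell loss and hyperglycemia. All mice were 4 months old, had been kept with 12 h of light and 12 h of dark per day and were perfused with saline before dissection. Retinas were collected at zeitgeber time (ZT, hours after lights on) 1, 5, 9, 13, 17 and 21, with 5, 6, 5, 5, 5 and 4 control libraries and 5, 5, 5, 4, 4 and 5 diabetic libraries. The mutation is carried in every cell of the animal, and a point mutation is not seen in gene counts, so the counts give no check of the genotype labels. Each mouse was sampled once, so the time points are different animals. Dissection at ZT13, ZT17 and ZT21 was done under dim red light, so night and day cannot be told apart from dissection lighting. ZT1, ZT5 and ZT9 do not differ in this way. The sources used here give no dissection day or session, so time of day and session cannot be told apart.

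The pigment epithelium is a single layer of pigmented cells that faces the photoreceptors. It renews 11-cis retinal in the visual cycle, takes up shed rod outer segment tips, carries metabolites between the choroid and the retina and absorbs stray light with melanin. Of the 9 genes, Lrat encodes the enzyme that makes retinyl esters, Rpe65 the isomerase that turns these esters into 11-cis retinol, and Rdh5 a dehydrogenase that oxidises 11-cis retinol to 11-cis retinal. Rgr encodes a retinal-binding opsin that is found in the pigment epithelium and in Müller glia. Ttr encodes transthyretin, the carrier of thyroxine and of retinol-binding protein, and Best1 encodes bestrophin 1, a chloride channel. Tyr and Tyrp1 encode enzymes of melanin synthesis, and Pmel encodes the protein of the fibrils on which melanin is laid down. These 3 pigment genes are also used by melanocytes of the choroid and iris, which differ from the pigment epithelium in origin.

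Promoter sequences were shown for 5 of the genes, chosen by the letters described below and not by their behaviour across libraries. Of the 9 genes, 7 had a promoter sequence in RefSeq (GRCm38.p6), covering 250 bases before the gene's start in RefSeq, and Ttr and Pmel had none there. Distances below are counted from that start, which was the Gencode start for Tyr and Best1 but lay 90 bases inside the Gencode gene for Tyrp1, 6 inside it for Rpe65 and 3591 inside it for Rdh5, and 50 bases ahead of it for Rgr and 1 ahead for Lrat. The M-box, through which MITF acts on pigment genes and which is the E-box CATGTG with AGT before it and CT after it, was found in Tyr and Tyrp1, at 24 and 49 bases before the RefSeq start, so that the stretch of Tyrp1 lies within the Gencode gene. It was present on either strand in 7 of 32851 promoters, or 0.0213%. In the stretches from chr7:87493517-87493545 (minus strand) and chr4:80834155-80834183 (plus strand), the capitals mark the M-box.

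Tyr: gaaaaagttAGTCATGTGCTttgcagaag
Tyrp1: tggggagggAGTCATGTGCTgcctagtag

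The letters GGATTA, the core that OTX2 and related homeodomain proteins recognise, were found on one strand or the other in Rpe65, Rgr and Best1, and in 6.25% of all promoters. The first base of the match lay 42, 167 and 227 bases before the start in these genes. In the stretches from chr3:159599109-159599174 (plus strand), chr14:37049146-37049211 (minus strand) and chr19:10001825-10001883 (minus strand), the capitals mark this core, as GGATTA in Rpe65 and as its reverse complement in Rgr and Best1.

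Rpe65: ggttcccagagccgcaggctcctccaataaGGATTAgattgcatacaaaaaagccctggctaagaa
Rgr: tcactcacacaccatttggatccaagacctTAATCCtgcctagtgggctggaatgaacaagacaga
Best1: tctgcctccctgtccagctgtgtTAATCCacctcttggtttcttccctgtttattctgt

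The E-box CATGTG outside an M-box was present in Rpe65, on the reverse strand 239 bases before the start, and 12.3% of all promoters held these letters. The promoters of Lrat and Rdh5 held none of the letters searched for. Whether the letters follow the behaviour of the genes across libraries was not tested. The members lay at Gencode M21 positions on GRCm38 as follows: Rpe65 at chr3:159599175-159625321 and Lrat at chr3:82892579-82903973, Rdh5 at chr10:128913593-128922888 and Pmel at chr10:128704195-128720238, Rgr at chr14:37034909-37048964, Ttr at chr18:20665280-20674321, Best1 at chr19:9985174-10001633, Tyr at chr7:87424771-87493512 and Tyrp1 at chr4:80834123-80851719. Exons of Rdh5 overlap those of Bloc1s1 on the same strand, and exons of Pmel overlap those of Cdk2 and Dgka on the opposite strand. Whether counting used strand is not given in the sources used here, so reads in these stretches of Rdh5 and Pmel cannot be assigned with certainty.

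Total counts per library ranged from 7773117 to 22147398. All 9 genes passed the filter of a median above 4 normalized counts over the 58 libraries, and a normalized count is a read count divided by the DESeq2 size factor of the library. The labelled tissue held its defining transcripts, as Gnat1, the rod transducin gene, averaged 40087 normalized counts per kilobase of exon. On the same scale per exon length, the mean was 546 for Ttr, 164 for Rgr, 162 for Rpe65, 39.3 for Rdh5, 22.7 for Tyrp1, 20.1 for Lrat, 19.5 for Pmel, 4.82 for Tyr and 3.49 for Best1. Ttr therefore had the highest level, Rgr and Rpe65 were nearly equal, and Tyrp1, Lrat and Pmel differed by less than the spread of any of them over libraries. In raw reads, Best1 had 0 to 24 reads per library and Tyr 4 to 92, so single values of these genes carry a large counting error. The count of 0 for Best1, in diabetic replicate 4 at ZT9, allows a true count of up to 3 reads.

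Levels differed widely between libraries. Rpe65 had a median of 324 normalized counts and ranged from 30.01 in diabetic replicate 4 at ZT5 to 817 in control replicate 1 at ZT21, a ratio of 27.2. The ratio of highest to lowest library was 14.1 for Lrat, 7.85 for Rdh5, 14.1 for Rgr, 15.6 for Ttr, 33.3 for Tyr, 28.5 for Tyrp1 and 34.3 for Pmel. Diabetic replicate 1 at ZT5 was lowest for Lrat, Rdh5, Rgr, Ttr and Pmel, and diabetic replicate 4 at ZT5 was lowest for Rpe65, Tyr and Tyrp1. Diabetic replicate 5 at ZT13 was highest for Rdh5, Rgr, Ttr, Tyr and Pmel. In RNA from whole retinas, more pigment epithelium cells and more RNA per cell cannot be told apart.

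**Figure D1:**
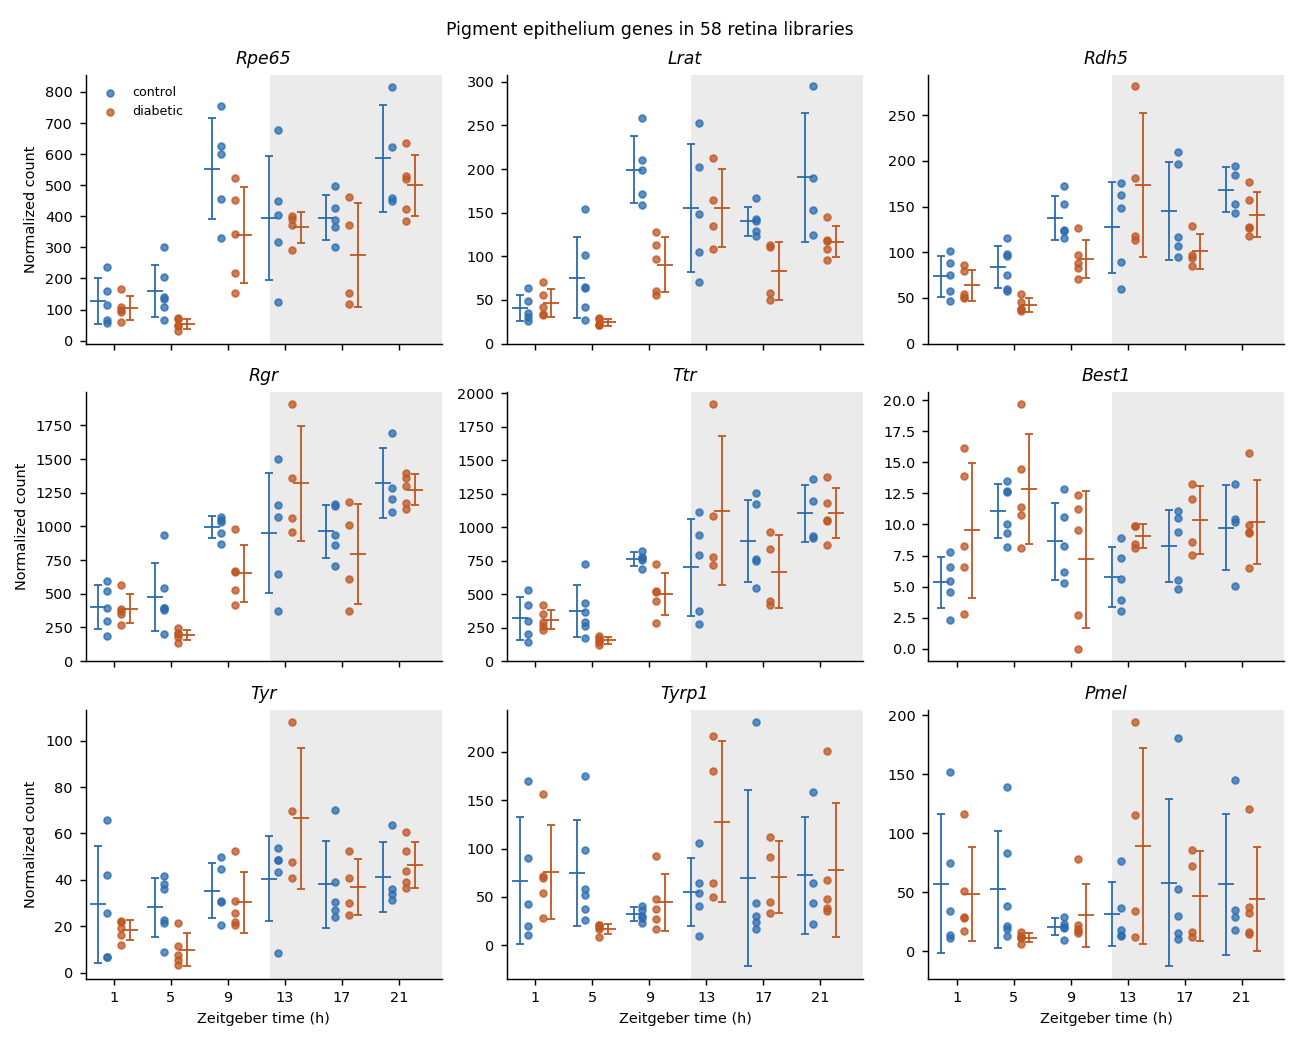
Normalized count (y axis, linear) of each gene against zeitgeber time (x axis, hours), with a point for each of the 58 libraries, control in blue and diabetic in orange, horizontal marks and bars for the group mean ± SD, and grey for the dark phase. Rpe65, Lrat, Rgr and Ttr were low at ZT1 and ZT5 and higher from ZT9 on, Tyrp1 and Pmel had single high libraries at several time points, and Best1 stayed under 20 normalized counts.

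The first comparison asked how the genes varied over the day. Rpe65 was low in the early light phase and high from ZT9 through the night in both genotypes. In control retinas Rpe65 was 236, 116, 55.4, 65.4 and 160 normalized counts at ZT1, and from 65.6 over a median of 137 to 301 at ZT5. The control values at ZT9 were 627, 600, 754, 330 and 456, and at ZT13 they were 676, 318, 448, 404 and 125. At ZT17 they were 388, 496, 365, 302 and 425, and at ZT21 they were 817, 622, 450 and 457. The control libraries at ZT9 were all above those at ZT1 and ZT5, while those at ZT13 overlapped them through 1 low library.

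In diabetic retinas Rpe65 was 90.7, 165, 107, 97.5 and 60.0 normalized counts at ZT1 and 47.3, 72.5, 68.8, 30.01 and 50.2 at ZT5. At ZT9 the values were 454, 524, 344, 154 and 219, and at ZT13 they were 393, 292, 372 and 402. At ZT17 they were 463, 118, 154 and 372, and at ZT21 they were 531, 635, 424, 521 and 386. Every diabetic library from ZT9 on was above every diabetic library at ZT5, and those at ZT13 and ZT21 were also above every one at ZT1. Over both genotypes, 14 of the 21 libraries of ZT1 and ZT5 were below all 37 later ones, and 31 of the 37 later ones were above all early ones.

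Night (ZT13, ZT17 and ZT21) was compared with day (ZT1, ZT5 and ZT9) by edgeR's quasi-likelihood test over all genes, with 12 group means in 1 fit and a Benjamini-Hochberg adjusted p under 0.05 as the call. Of the 9 genes, 7 were higher at night, against 12.1% of the 19120 genes tested. Rpe65 rose by 1.29 ± 0.15 (log2 difference ± SE, adjusted p = 1.4e-09). The visual cycle enzymes Lrat and Rdh5 rose by 1.10 ± 0.13 and 0.86 ± 0.10, and the opsin gene Rgr and the carrier gene Ttr rose by 1.24 ± 0.12 and 1.33 ± 0.13. Of the pigment genes, Tyr rose by 0.93 ± 0.18, and Tyrp1 by 0.72 ± 0.27 with an adjusted p of 0.040. Pmel did not pass, with 0.70 ± 0.32 and an adjusted p of 0.097, and Best1 had a difference of 0.00 ± 0.16. The median difference over the 9 genes was 0.93 and over all genes tested it was -0.01.

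The Tyrp1 call lay near the threshold. It was lost without any 1 of 16 libraries, which were control ZT1 replicates 1, 3 and 4, control ZT5 replicate 2, control ZT9 replicate 2, control ZT13 replicate 4, control ZT17 replicate 1, control ZT21 replicate 1, diabetic ZT1 replicate 1, diabetic ZT5 replicate 4, diabetic ZT9 replicate 1, diabetic ZT13 replicates 1 and 5, diabetic ZT17 replicates 1 and 3 and diabetic ZT21 replicate 4. Without control replicate 1 at ZT17 the Tyrp1 difference was 0.51 with an adjusted p of 0.12 by edgeR. Pmel passed without control replicate 6 at ZT1, with 0.83 and an adjusted p of 0.043.

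Within control retinas 5 of the 9 genes were higher at night, against 3.91% of genes, and within diabetic retinas 7 were, against 6.54%. The 5 genes of the control retinas were Rpe65 (1.00 ± 0.20), Lrat (0.90 ± 0.17), Rdh5 (0.61 ± 0.14), Rgr (0.89 ± 0.17) and Ttr (0.97 ± 0.18). In diabetic retinas the same 5 genes had differences of 1.59 ± 0.22, 1.29 ± 0.19, 1.10 ± 0.15, 1.59 ± 0.18 and 1.70 ± 0.19. Tyr had 0.35 ± 0.24 in control and 1.51 ± 0.27 in diabetic retinas, and Tyrp1 had 0.25 ± 0.37 and 1.19 ± 0.39. The difference between the genotypes was itself tested. No member passed (0 of 9), and neither did any of the 19120 genes by edgeR (0%), although 642 genes and 4 members had an unadjusted p under 0.05 and DESeq2 called 2 genes. The largest difference between genotypes among the 9 genes was 1.16 ± 0.36 for Tyr, with an unadjusted p of 0.0019 and an adjusted p of 1.00 by edgeR.

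A rhythm with a period of 24 h was tested in each genotype with an empirical JTK_CYCLE rank test, and a gene was called with a p under 0.05 and its highest library more than 25% above its lowest, which is a looser condition than the same cut on a fitted curve. In control retinas 5 of the 9 genes were called, against 21.8% of all genes, and in diabetic retinas 7, against 23.9%. With the peak of the fitted cosine more than 25% above its trough instead, a setting added after seeing the data, again 5 and 7 members were called, against 10.9% and 11.6% of genes. The 5 control genes were again Rpe65, Lrat, Rdh5, Rgr and Ttr. Their fitted peaks lay at ZT14.8, ZT13.9, ZT16.0, ZT15.9 and ZT16.6, and their relative amplitudes, the cosine amplitude as a percentage of the mean, at 41.8%, 42.2%, 28.6%, 37.5% and 42.2%. In diabetic retinas the peaks of these genes lay at ZT16.3, ZT15.2, ZT15.8, ZT16.4 and ZT16.6, with relative amplitudes of 56.8%, 57.0%, 49.3%, 62.8% and 66.2%. Tyr and Tyrp1 were called in diabetic retinas only by this test, with peaks at ZT15.5 and ZT16.7 and relative amplitudes of 63.8% and 48.0%, and the difference of their rhythm between genotypes was not tested apart from the night and day contrast. By an edgeR cosine test Tyrp1 was not called in diabetic retinas, with an adjusted p of 0.090. Best1 had rank test p-values of 0.21 and 0.74 by the shuffled series in control and diabetic retinas, and Pmel had 0.74 and 0.069. By the rank test the called genes also passed when the rank test p was adjusted over all expressed genes, where 8.23% of genes in control and 9.80% in diabetic retinas were called.

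The second comparison asked which genes varied together between libraries of the same genotype and time point. For each pair of genes, Pearson's r was taken between deviations of log2(normalized count + 1) from the mean of the group over 58 libraries, with p-values from 100000 permutations within groups that were not adjusted over the 36 pairs. Rpe65 and Lrat had r = 0.92 and Spearman's ρ = 0.94, with permutation p = 1e-05 for both, the smallest the permutations can give. Without the 2 libraries farthest from the median of Rpe65, r was 0.90. Rgr and Ttr had r = 0.94 and ρ = 0.91, also with permutation p = 1e-05, and r was 0.92 without 2 libraries. The 10 pairs among Rpe65, Lrat, Rdh5, Rgr and Ttr had r from 0.57 to 0.94 with a median of 0.83.

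Tyrp1 and Pmel formed a pair apart from these 5 genes, a grouping that was seen in the values and not chosen beforehand. They had r = 0.87 and ρ = 0.85 with permutation p = 1e-05, and r = 0.87 without 2 libraries. The 10 pairs of Tyrp1 or Pmel with the 5 genes had r from 0.05 to 0.41. Rpe65 and Tyrp1 had r = 0.33 with permutation p = 0.032 and ρ = 0.25 with permutation p = 0.092, and r was 0.23 without 2 libraries. Within control libraries Tyrp1 had r of 0.56 to Rdh5, 0.55 to Rgr and 0.59 to Ttr, and within diabetic libraries it had 0.10, -0.03 and 0.03, a difference that was not tested. Tyr lay between the sets, with r from 0.52 to 0.61 to the 5 genes and with r = 0.77 to Tyrp1 and 0.60 to Pmel. Best1 had r from 0.14 to 0.27 to the other 8 genes.

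**Figure D2:**
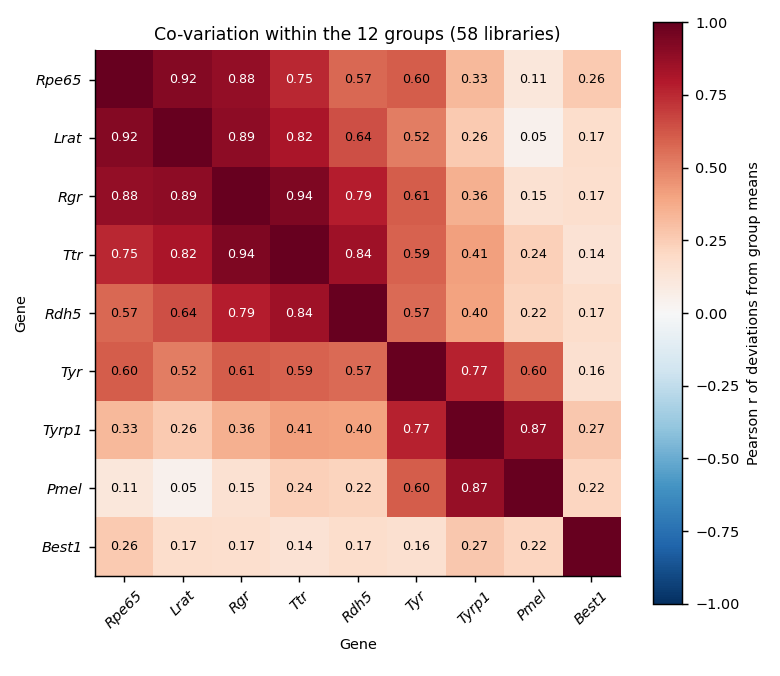
Pearson's r (colour and number) between deviations from the mean of each of the 12 groups for each pair of the 9 genes, over 58 libraries. Rpe65, Lrat, Rgr, Ttr and Rdh5 form a block with r of at least 0.57, Tyrp1 and Pmel form another with r = 0.87, Tyr shares part of both, and Best1 is at or below 0.27 to every other gene.

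**Figure D3:**
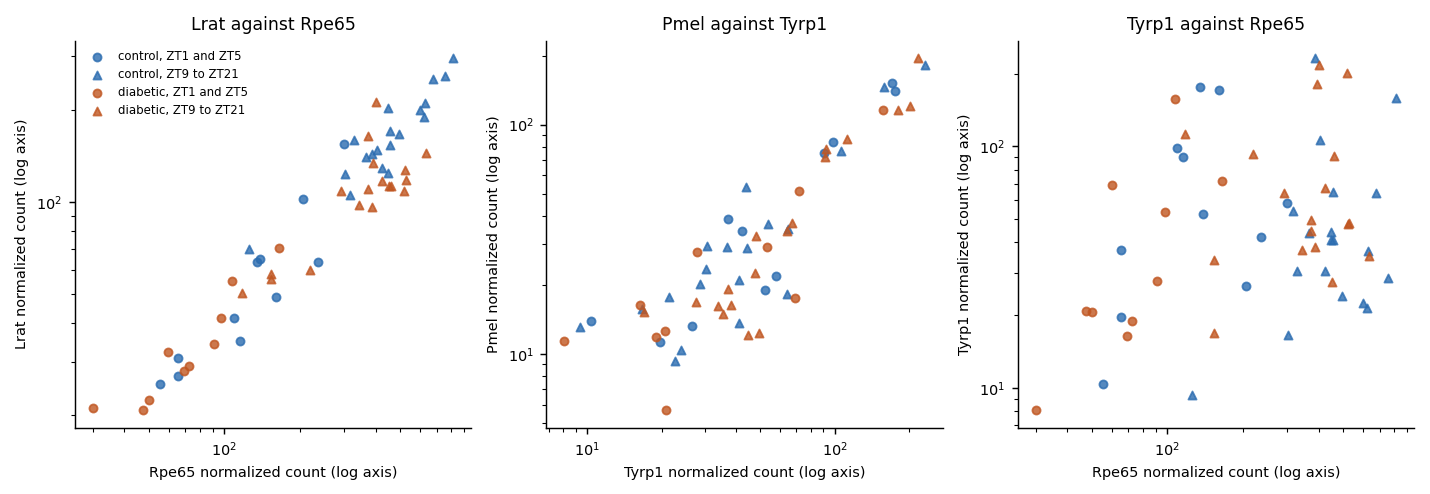
Normalized counts of 3 pairs of genes (both axes logarithmic), with a point for each library, colour for genotype, circles for ZT1 and ZT5 and triangles for ZT9 to ZT21. Lrat against Rpe65 and Pmel against Tyrp1 fall along lines, and Tyrp1 against Rpe65 is scattered, with high Tyrp1 in libraries of low and high Rpe65.

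In the 5 libraries highest in Tyrp1, its level was 231 normalized counts in control replicate 1 at ZT17, 216 in diabetic replicate 5 at ZT13, 200 in diabetic replicate 4 at ZT21, 181 in diabetic replicate 1 at ZT13 and 176 in control replicate 6 at ZT5. Pmel in these libraries was 181, 195, 121, 116 and 140, which were ranks 2, 1, 6, 8 and 5 of 58. Rpe65 in them was 388, 402, 521, 393 and 135, which were ranks 23, 21, 10, 22 and 42. Dct, the melanin enzyme dopachrome tautomerase, was 655, 602, 380, 438 and 329. The ranks of Rpe65 are over both genotypes and all time points, and the lowest of the 5 values, 135 in control replicate 6 at ZT5, was close to the median of 137 of its own group.

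The same question was put to all genes with edgeR, where the log2 level of Rpe65 was a term beside the 12 groups. A slope of 1 means that a gene doubles when Rpe65 doubles. Of the 8 other members, 5 had a positive slope past an adjusted p of 0.05, against 8.40% of 19119 genes. The slopes were 0.78 ± 0.05 for Lrat (adjusted p = 3.4e-17), 0.71 ± 0.06 for Rgr (1.2e-13), 0.65 ± 0.08 for Ttr (2.0e-07), 0.64 ± 0.14 for Tyr (0.0035) and 0.36 ± 0.08 for Rdh5 (0.0034). The slopes that did not pass were 0.42 ± 0.23 for Tyrp1, 0.26 ± 0.28 for Pmel and 0.18 ± 0.14 for Best1. The level of Rpe65 has a counting error of its own and was read from the same libraries. In control libraries alone and in diabetic libraries alone 3 members passed, Lrat, Rgr and Ttr, with slopes of 0.85, 0.76 and 0.77 in control and 0.69, 0.63 and 0.49 in diabetic libraries, against 0.262% and 6.35% of genes with a positive slope.

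The number of genes called along Rpe65 depended on the fit far more than the members did. It was 3350 over both directions, 2152 without diabetic replicate 1 at ZT17, 63 in control libraries alone, 2988 in diabetic libraries alone and 45 with Lrat in place of Rpe65, where 4 members passed against 0.209% of genes with a positive slope. Tyr was not among these 4, with a slope on Lrat of 0.66 ± 0.17 and an adjusted p of 0.11 by edgeR.

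The 10 expressed genes most alike to Rpe65 over the 58 libraries, by Pearson's r of log2 levels with differences between groups included, were Ermn (0.96), Lrat (0.96), Rgr (0.95), Cpxm2 (0.92), Col8a1 (0.91), Ttr (0.91), Car12 (0.90), Col8a2 (0.90), Slc16a8 (0.90) and Rbm47 (0.89). Ermn encodes ermin, a cytoskeletal protein best known from oligodendrocytes. Col8a1 and Col8a2 encode chains of collagen VIII, which is found in basement membranes including Bruch's membrane, and Slc16a8 encodes the lactate transporter MCT3 of the pigment epithelium. Car12 encodes a membrane-bound carbonic anhydrase. Ermn had the steepest slope of these non-members, at 0.73 ± 0.05, and Col8a1 and Col8a2 had slopes of 0.58 and 0.71. Among the members, Rdh5 was at rank 16 (0.86), Tyr at rank 44 (0.76), Tyrp1 at rank 1010 (0.30), Pmel at rank 3214 (0.17) and Best1 at rank 8891 (0.01). These values share the libraries and their depth and are given as a description.

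Lists of genes of the pigment epithelium and of neighbouring tissues were read in the same fits. Of 14 other pigment epithelium genes, all expressed, 10 had a positive slope on Rpe65, against 8.40% of genes, none had a negative one, and the median slope was 0.31 against 0.00 for all genes. Slc6a20a, an amino acid transporter, had 0.78 ± 0.10, Slc16a8 had 0.65 ± 0.09, Enpp2, which encodes autotaxin, had 0.22 ± 0.03, and Ermn is given above. At night 12 of these 14 genes were higher, against 12.1% of genes, with 1.28 ± 0.13 for Slc16a8, 1.28 ± 0.15 for Slc6a20a, 0.79 ± 0.12 for Ermn and 0.55 ± 0.04 for Enpp2. Rrh, which encodes peropsin, had a night minus day difference of -0.07 ± 0.04 and a slope of 0.01 ± 0.04, and Cldn19, a tight junction gene, had 0.27 ± 0.18 and 0.30 ± 0.16, and neither gene passed either test. In the rhythm test, 12 of the 14 genes were called in each genotype, against 21.8% of genes in control and 23.9% in diabetic retinas.

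Of 8 genes of the visual cycle that are shared with photoreceptors and Müller glia, Rdh10, which encodes a retinol dehydrogenase, had a positive slope on Rpe65 (0.16 ± 0.02), and Dhrs3, a retinal reductase gene, had a negative one (-0.13 ± 0.03). The median slope of the list was -0.04. At night Rdh10 (0.33 ± 0.04), Rdh8 (0.12 ± 0.03) and Abca4 (0.06 ± 0.02) were higher and Rdh12 was lower (-0.10 ± 0.03). Among 7 genes of outer segment uptake, Itgav (0.12 ± 0.03), Tyro3 (0.13 ± 0.04) and Cd36 (0.30 ± 0.09) had positive slopes on Rpe65 and Gas6 (-0.08 ± 0.03) a negative one. Mertk, the receptor for uptake, and Itgav were higher at night, by 0.20 ± 0.04 and 0.18 ± 0.03. Of 6 transcription factors of pigment cells, 5 were expressed. Sox9 and Lhx2 had slopes of -0.15 ± 0.05 each, past the threshold, and no factor passed between night and day.

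Markers of other cells were followed beside the members. In the 4 rod genes Gnat1, Pde6b, Nrl and Sag and in 5 Müller glia genes no slope on Rpe65 passed by edgeR, and the summed level of the Müller glia genes ranged from 37057 to 55443 normalized counts. At night 1 of these rod genes, Sag (-0.20 ± 0.03), was lower and 3 Müller glia genes were higher, Glul (0.16 ± 0.03), Slc1a3 (0.07 ± 0.02) and Apoe (0.18 ± 0.07). Of 8 genes of choroid and sclera stroma 7 were expressed and none had a slope on Rpe65 past the threshold, with the highest at 0.55 ± 0.21 for Ogn. Their sum ranged from 134 to 356 normalized counts in control day, 174 to 377 in control night, 155 to 343 in diabetic day and 225 to 734 in diabetic night libraries. Mgp and Pcolce, genes of connective tissue, were higher at night by 0.42 ± 0.08 and 0.44 ± 0.09. Of 5 endothelial genes Pecam1 was higher at night (0.10 ± 0.04) and Kdr lower (-0.09 ± 0.03). No slope on Rpe65 passed among the 5 endothelial, 3 smooth muscle and 2 lens genes that were expressed. The 4 cornea and 5 blood genes did not pass the filter, with sums of at most 509 and 190 normalized counts in any library, and Lim2 of the lens list was at 0 in every library. The part of these cells in the members' levels was not tested.

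The level of Rpe65 also entered the night minus day fit as a term. With it, 3 members were higher at night, Rdh5 (0.39 ± 0.14), Rgr (0.31 ± 0.09) and Ttr (0.48 ± 0.14), against 14.2% of genes. Lrat then had a difference of 0.08 ± 0.09, Tyr 0.11 ± 0.24 and Tyrp1 0.17 ± 0.40. None of these 3 differences passed. In the same fit, within diabetic retinas Rdh5 (0.54 ± 0.18), Rgr (0.46 ± 0.12) and Ttr (0.65 ± 0.18) were higher at night, against 9.57% of genes. Within control retinas none of the 8 members tested passed by edgeR (0 of 8), against 8.75% of genes called higher, and 1 of them, Ttr, had an unadjusted p under 0.05.

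A second level was followed after the pairing of Tyrp1 and Pmel had been seen, so its values are given as a description with no test. The log2 level of Tyrp1 was a term beside the 12 groups and the level of Rpe65. Pmel had a slope of 1.13 ± 0.07 and Tyr 0.46 ± 0.05. The slopes of the other 5 members were 0.11 ± 0.05 for Rdh5, 0.11 ± 0.05 for Ttr, 0.11 ± 0.09 for Best1, 0.04 ± 0.03 for Rgr and -0.01 ± 0.03 for Lrat. The melanosome genes Dct and Mlph, which encodes melanophilin, had slopes of 1.02 and 0.94, and Gpnmb, which encodes a glycoprotein of melanosomes and phagocytes, had 0.74. Mc1r, the melanocortin receptor gene, and Trpm1, a channel gene that bipolar cells also use, had -0.06 and -0.02. Of the other pigment epithelium genes, Cldn19 had 0.44, Mfrp 0.42 and Krt8 0.29, and the median of all 14 was 0.10. Oca2 and Slc24a5, which encode melanosome transport proteins, had 0.28 and 0.43 on Tyrp1 and 0.64 and 0.50 on Rpe65. Dcn, the stroma gene that encodes decorin, had 0.76 on Tyrp1 and 0.36 ± 0.27 on Rpe65. The other 6 stroma genes had slopes on Tyrp1 of 0.35 for Col1a2, 0.27 for Pcolce, 0.22 for Ogn, 0.19 for Col1a1, 0.15 for Col3a1 and 0.13 for Mgp, and the smooth muscle genes Myh11, Acta2 and Des had 0.21, 0.16 and 0.15. The median slope on Tyrp1 was 0.22 for the 7 stroma and 0.16 for the 3 smooth muscle genes, against 0.00 for all genes, and the part of these tissues in the levels of Tyrp1 and Pmel was not tested. The 10 genes most alike to Tyrp1 over the libraries were led by Dct (r = 0.95), Pmel (0.88) and Gpnmb (0.80), and Rpe65 was not among them.

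**Figure D4:**
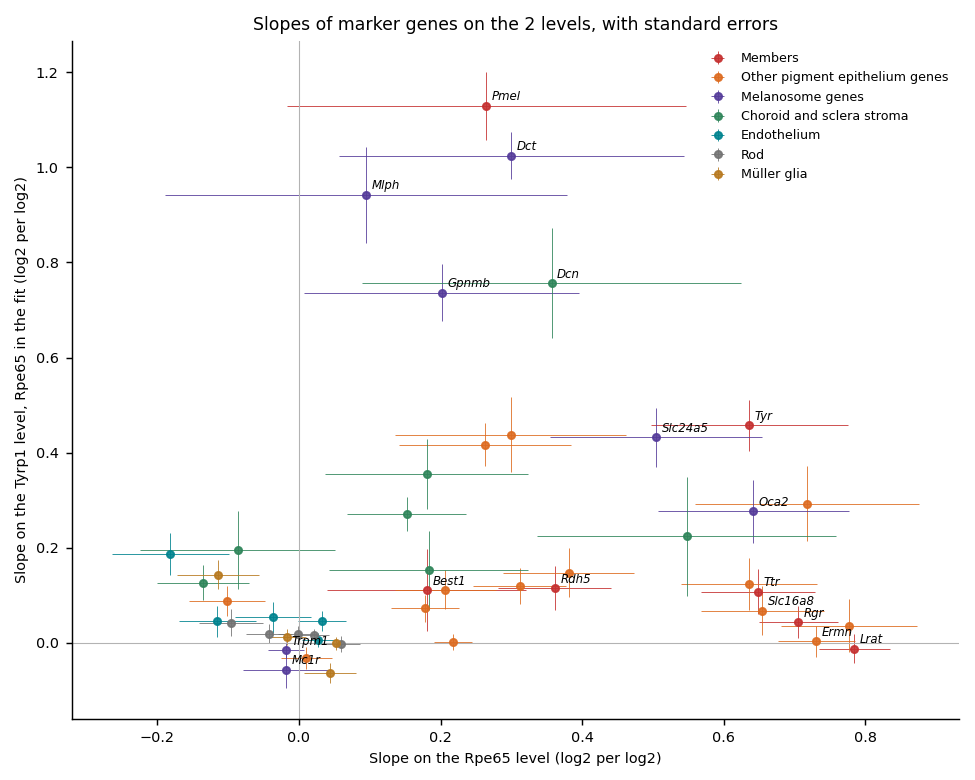
Slope of each gene on the log2 level of Rpe65 (x axis) against its slope on the log2 level of Tyrp1 with Rpe65 in the fit (y axis), both as log2 change per log2 change with SE bars, coloured by list. Lrat, Rgr and Ttr lie to the right near 0 on the y axis, Pmel, Dct, Mlph and Gpnmb lie high and to the left, Tyr lies between, and rod and Müller glia genes lie near the origin.

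The third comparison asked whether the genes differed between diabetic and control retinas. With the time points of each genotype pooled into 1 group, none of the 9 genes passed edgeR's test (0 of 9), against 2.99% of genes, and none passed DESeq2's test. Lrat had the smallest p, with a difference of -0.63 ± 0.22 (diabetic minus control, log2 ± SE), an unadjusted p of 0.0066 and an adjusted p of 0.12, and was the only member with an unadjusted p under 0.05, as were 15.5% of all genes. Rpe65 had -0.39 ± 0.26, Rdh5 -0.26 ± 0.16, Rgr -0.13 ± 0.22, Ttr -0.09 ± 0.23, Tyr -0.07 ± 0.22, Pmel -0.09 ± 0.32, Tyrp1 0.12 ± 0.28 and Best1 0.27 ± 0.16. The median over the 9 genes was -0.09, against 0.00 over all genes. Markers of other tissues that passed between genotypes were the lens gene Cryaa (-5.01 ± 0.93), the stroma gene Col1a1 (0.61 ± 0.16) and the smooth muscle gene Acta2 (-0.37 ± 0.11), as did Abca4 (-0.09 ± 0.02), a photoreceptor gene of the visual cycle list, and none of the 4 rod and 5 Müller glia genes passed. The lens list summed to between 0 and 31876 normalized counts in control libraries, with a median of 21.3, and to between 2.78 and 710.02 in diabetic libraries, with a median of 14.1. In control groups the highest lens sum was 31876 at ZT1, 22071 at ZT17 and 25403 at ZT21, against group medians of 42.2, 14.1 and 53.9. At ZT5, ZT9 and ZT13 no control lens sum was above 95.6. The part of these tissues in the genotype differences was not tested.

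This result changed when the time point was in the fit. Lrat was then lower in diabetic retinas, by edgeR -0.68 ± 0.14 with an adjusted p of 0.0022, and so was Rpe65, with -0.54 ± 0.15 and an adjusted p of 0.026. These 2 of 9 genes compare with 2.33% of genes that were lower in that fit. Rdh5 had -0.34 ± 0.11 with an adjusted p of 0.066, and Tyrp1 had 0.04 ± 0.28. In the fit of 12 groups, the estimate for each time point was below 0 (lower in diabetic retinas) for Rpe65 at 6 of 6 time points, for Rdh5, Rgr and Ttr at 5 of 6, for Lrat, Tyr and Pmel at 4 of 6 and for Tyrp1 and Best1 at 1 of 6. Some estimates were far smaller than their error, as for Ttr at ZT21 (-0.0037 ± 0.32) and, above 0, for Lrat at ZT13 (0.01 ± 0.30). With the level of Rpe65 in the fit without time points, Lrat had -0.24 ± 0.08 with an adjusted p of 0.069, and Rgr (0.16 ± 0.08) and Ttr (0.20 ± 0.11) turned to positive values that did not pass.

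**Figure D5:**
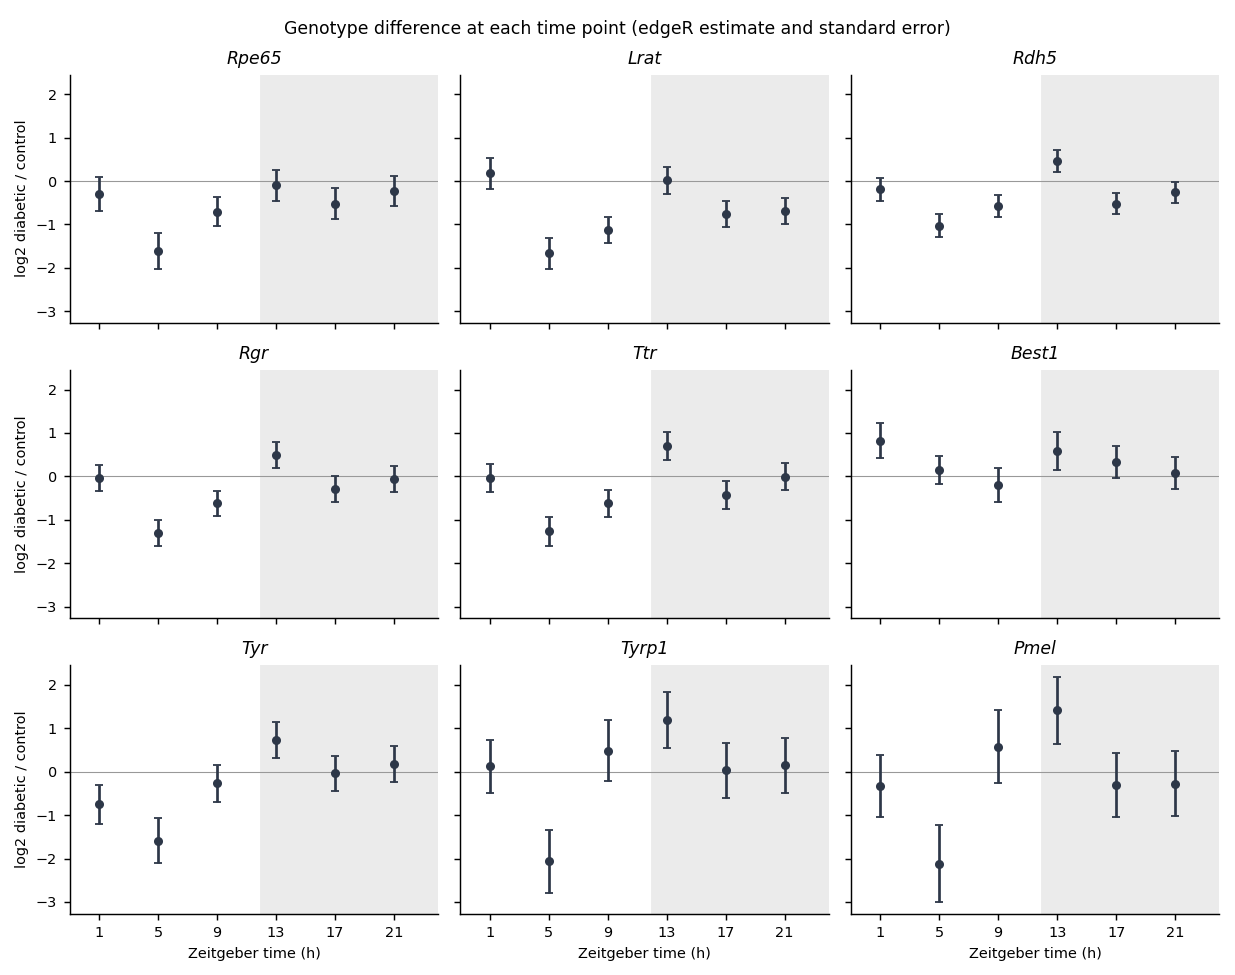
Log2 ratio of diabetic to control libraries (y axis) at each zeitgeber time (x axis, hours) for the 9 genes, with the edgeR estimate as a point and its SE as a bar. Estimates at ZT5 are below -1 for every gene except Best1, and at ZT13 those of Rdh5, Rgr, Ttr, Best1, Tyr, Tyrp1 and Pmel are above 0 and Lrat is near 0.

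At ZT5 the diabetic libraries were lower than the control libraries in 8 of the 9 genes by point estimate. Lrat was from 26.9 over a median of 64.1 to 154 normalized counts in control and 20.8, 29.0, 27.9, 21.1 and 22.4 in diabetic libraries, with a difference of -1.67 ± 0.36. Tyrp1 was from 26.5 over 55.2 to 176 in control and 20.8, 19.0, 16.4, 8.11 and 20.6 in diabetic libraries, with -2.07 ± 0.73. The groups did not overlap for Tyrp1 and Rdh5, where 0.690% of genes had every diabetic library below every control library, and they overlapped for Lrat through the lowest control library. Rpe65 had -1.61 ± 0.42, Rdh5 -1.02 ± 0.26, Rgr -1.31 ± 0.30, Ttr -1.27 ± 0.33, Tyr -1.58 ± 0.52, Pmel -2.12 ± 0.89 and Best1 0.15 ± 0.33. All members but Best1 had an unadjusted p under 0.05, as did 6.15% of genes.

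After adjustment over all genes no member passed at ZT5 by edgeR (0 of 9, against 0.0209% of genes), with adjusted p-values of 0.060 for Lrat, 0.088 for Rgr, 0.15 for Rpe65 and Rdh5 and 0.17 for Ttr. DESeq2's Wald test called 5 members lower, Lrat (adjusted p = 0.0035), Rgr (0.020), Rpe65 (0.026), Rdh5 (0.040) and Ttr (0.047), against 0.157% of the 19120 genes fitted. It adjusted over fewer genes than edgeR, because DESeq2's filter on mean counts was left on. Its calls and those of edgeR are therefore not a like comparison. In edgeR, Lrat passed without a filter on low counts (adjusted p = 0.029), where 0.00806% of 37233 genes were called lower. It also passed without any 1 of 11 libraries. These were control replicates 3 and 5 at ZT5, 1 and 5 at ZT13, 2 at ZT17 and 1 at ZT21, and diabetic replicates 1 and 4 at ZT9 and 1, 3 and 4 at ZT17, and the difference of Lrat lay between -1.32 and -1.87 over all libraries left out in turn. Rgr passed without control replicate 5 at ZT5, with -1.48 and an adjusted p of 0.040.

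With the level of Rpe65 in the ZT5 fit, the difference of Lrat was -0.36 ± 0.17, that of Rgr -0.15 ± 0.17 and that of Ttr -0.16 ± 0.26, while that of Tyrp1 was -1.47 ± 0.80 and that of Pmel -1.76 ± 0.99. None of these passed (adjusted p of 0.59 or more by edgeR). The summed level of the 14 other pigment epithelium genes at ZT5 was between 1902 and 2610.4 normalized counts in control and between 1738 and 1952 in diabetic libraries. Enpp2, Krt18 and Rrh made up 69.3% of the mean of this sum at ZT5, and of these Krt18 (-0.10 ± 0.05) and Rrh (0.01 ± 0.04) had slopes on Rpe65 that did not pass. Slc16a8 and Ermn, with slopes on Rpe65 of 0.65 and 0.73, made up 1.30% and 1.33%, so the sum says little about such genes.

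At the other 5 time points no member passed by edgeR or by DESeq2, while edgeR called 0.167% of genes at ZT17, 0.0105% at ZT1, 0.00523% at ZT9 and 0% at both ZT13 and ZT21. At ZT13 and ZT21, 852 and 892 genes had an unadjusted p under 0.05 by edgeR, and DESeq2 called 1 and 2. Unadjusted, 4 members were under 0.05 at ZT9, against 4.49% of genes, and 2 at ZT17, against 8.82%. At ZT1, ZT13 and ZT21 there was 1 each, against 5.50%, 4.46% and 4.67%. Lrat at ZT9 was 211, 199, 258, 159 and 171 normalized counts in control and 112, 127, 97.4, 55.8 and 59.9 in diabetic libraries. These groups did not overlap, as for 0.434% of genes in that direction, and the difference was -1.13 ± 0.29 with an adjusted p of 0.29. Lrat at ZT17 also did not overlap, with 143, 166, 140, 123 and 129 in control and 113, 50.1, 58.02 and 110 in diabetic libraries, as for 1.05% of genes in that direction, and had -0.76 ± 0.31 with an adjusted p of 0.41. At ZT13 most point estimates were positive, with 0.69 ± 0.32 for Ttr, 0.49 ± 0.30 for Rgr, 1.19 ± 0.65 for Tyrp1 and 1.42 ± 0.78 for Pmel, and the adjusted p was 1.00 for each. Rpe65 differed at ZT13 by -0.10 ± 0.36, so the point estimates did not share a sign there. Stroma genes at ZT13 summed to 308 to 734 normalized counts in diabetic and 176 to 337 in control libraries. Blood genes summed to 9.85 to 142 and 1.21 to 16.1, and endothelial genes to 2736 to 3365 and 2776 to 3309. The part of these tissues in the ZT13 estimates was not tested. At ZT1 Best1 had 0.82 ± 0.40 with an adjusted p of 0.88, from 2.31 to 7.79 in control and from 2.77 to 16.1 normalized counts in diabetic libraries.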

How the data were processed

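RNA of 58 single retinas was sequenced with paired reads. The authors used STAR 2.7.4a with the mouse genome GRCm38.p5 and Gencode M15 for alignment, and HTSeq 0.11.1 for counting per gene, and the deposited values are raw whole-number counts of 52459 symbols. Strand and multi-mapping settings are not given in the sources used here. All sample columns were used. Counts per library were between 7773117 and 22147398, which limits the precision of genes with few reads such as Best1.

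The 9 genes, the gene lists and the tests were chosen with earlier results of these data known. Genes with a median above 4 DESeq2-normalized counts over all libraries (19120) were tested with edgeR 4.0.16 (quasi-likelihood test, TMM factors) in R 4.3.3, with Benjamini-Hochberg adjusted p under 0.05 over all genes. Genotype was tested with 1 group per genotype, and genotype at each time point, night minus day and its difference between genotypes in 1 fit of 12 groups. Slopes used log2(normalized count + 1) of Rpe65 beside the 12 groups. DESeq2 1.42.0 was an alternative, with its filter on mean counts left on, so its p-values could be adjusted over fewer genes. Rhythm used a re-implemented empirical JTK_CYCLE test (30 waveforms, 200000 shuffled series) with numpy and scipy. In simulated data made from these libraries, edgeR recovered 99% of genes given a genotype fold of 2 in a fit of 19120 genes. It recovered 90% of those given a slope of 0.5 on Rpe65 in a fit of 19119. These counts were simulated without any change over the day, so the 99% says little about genes with such a change in the pooled genotype test. The text names all 9 genes, up to 4 genes per list by the smallest adjusted p of the slope on Rpe65, and the 10 genes most alike to Rpe65, and other list genes named were chosen after their values were seen. No pair of replicate libraries agreed within sampling noise (lowest chi-square per degree of freedom 1.62 over 113 pairs). The labels do not say how replicates of a group were chosen beyond separate retinas, so p-values measure the spread between these libraries. Alternatives were other normalization, filters and tests, time point as a factor, a replicate block, the Rpe65 level as a covariate, and each library left out in turn.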

Additional observations from a re-analysis of the deposited data

Results flagged for a closer look

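In 108 groups of 4 to 6 libraries (9 genes in 12 groups), 8 values, from 5 libraries, stood apart from the rest of their group by Dixon's test, which flags about 5% of groups by chance. Values are normalized counts. All 8 were of pigment genes, and 8 of 108 is not far above that share. The test used counts without a log, and Tyrp1 and Pmel had the largest SD over libraries, at 86.9% and 104% of the mean. Whether pigment genes were flagged more often than such a spread would give was not tested. Tyrp1 was 231.1 in control replicate 1 at ZT17, where the other libraries reached 43.77, and 200.5 in diabetic replicate 4 at ZT21, where the others reached 67.19. Pmel was 181.3 and 120.9 in the same libraries, with others of at most 53.15 and 37.23. Pmel was also 145.5 in control replicate 1 at ZT21 and 78.03 in diabetic replicate 5 at ZT9, with others of at most 34.85 and 22.49. Tyr was 63.74 in control replicate 1 at ZT21, above others of at most 36.12, and 8.396 in control replicate 5 at ZT13, below others of at least 43.35. Rpe65, Lrat, Rdh5, Rgr, Ttr and Best1 had no such library in any group.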

How the results depend on the processing

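The count of members called was the same, or within 1.5 times, under DESeq2 size factors, a median above 10 and most other settings. Over all time points, 2 members and 919 genes were called between genotypes with time point as a factor. At ZT5, 1 member was called with no filter on low counts, among 3 of 37233 genes. DESeq2 called 5 members there, among 32 of 19120 genes fitted, of which fewer entered its adjustment. With the Rpe65 level as a covariate, 3 members were called between night and day, with 0 for control and 3 for diabetic retinas taken alone, against 8.75% and 9.57% of genes called higher, and the genotype differences of Rgr, Ttr and Tyr turned to 0.16, 0.20 and 0.10. Best1, near 0, turned between night and day to -0.23 with this covariate and to -0.035 without the 5 libraries highest in Tyrp1, which were chosen after seeing the data, and its slope was -0.022 with no group terms. Without those 5 libraries, 4 of them from the night, 6 members were called between night and day, and Tyrp1 and Pmel had 0.27 and 0.16, but the libraries were chosen by Tyrp1 itself, so nothing is read from these values. DESeq2 called 2 genes for the genotype difference of night minus day. The slope on Rpe65 called 3 members in control and 3 in diabetic libraries alone, and the count of genes was 638 with no group terms, 45 with Lrat in place of Rpe65, 63 in control libraries and 1544 without the 5 libraries highest in Rpe65. Rhythmic genes numbered 2096 and 2366 by an edgeR cosine test 1573 and 1874 after adjustment, and 2092 and 2212 with the fold taken from the fitted cosine, a setting added after seeing the data, in control and diabetic retinas, with 5 and 7 members after adjustment and with Tyrp1 lost in diabetic retinas by the cosine test. The cause of these changes was not tested.

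Replicate numbers were shared between groups. Of 26 pairs of a control and a diabetic library with the same time point and number, only 15 had a correlation of deviations above 0.1 (range -0.20 to 0.55). No label says what a number stands for, so the numbers were not taken as pairs. Still, 25 of 52 libraries correlated best with a library of their own number, which is a hint from the data and not from the design that the numbers may be linked. With a replicate block, 2 members and 948 genes were called between genotypes over all time points, 1 member and 10 genes at ZT5, 1 gene for the genotype difference of night minus day and 54 genes along Rpe65, where Tyr lost its call, and Pmel passed between night and day. The block gave Pmel a genotype difference of 0.090 and Best1 a night minus day difference of -0.042, both of the opposite sign to the fit without it.

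When single libraries were left out, the members called at ZT5 numbered 0 to 2 and all genes called there 2 to 8, the genes called for the genotype difference of night minus day 0 to 3 and those along Rpe65 2152 to 4459. The genotype difference of Tyrp1 ranged from -0.0028 to 0.27 and that of Pmel from -0.27 to 0.072, and the night minus day difference of Best1 from -0.040 to 0.052. Pmel was called rhythmic in diabetic retinas without any 1 of 7 of the 28 libraries. Low read counts limit Best1, Tyr and Pmel.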
